A study of Homo sapiens with 6 samples.

Results

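The genes described here are the nuclear-encoded subunits of respiratory complexes II, III, IV and V, 42 of the 63241 genes listed for the series, of which 4 belong to complex II, 9 to complex III, 11 to complex IV and 18 to complex V. They were listed by name and not selected by a threshold on their values, though earlier results of these data were known. Each name matched 1 gene. The values come from RNA-seq of HT-29 cells, a wild-type human line from a colorectal adenocarcinoma, which the labels call enterocytes. In the Amuc_0904 group, 3 libraries came from cells given 0.5 μM Amuc_0904, a protein of the gut bacterium Akkermansia muciniphila, for 72 h, and in the control group 3 libraries came from cells given buffer for the same time. The dose and the time are those of the study's methods, and no source says whether the libraries of a group were grown apart, so the p values cover the spread from library to library and no more. The study asked which genes and pathways differ in the presence of the protein, with oxidative phosphorylation among them.

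Complex II, or succinate dehydrogenase, oxidises succinate in the citric acid cycle and hands the electrons to ubiquinone. Complex III passes them to cytochrome c and complex IV passes them to oxygen, and both move protons across the inner mitochondrial membrane, a gradient that complex V, the ATP synthase, uses to make ATP. Every subunit of complex II is encoded in the nucleus, while complexes III, IV and V combine nuclear subunits with a few encoded by mitochondrial DNA, and colonic epithelial cells use this chain to oxidise butyrate.

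Levels are in TPM (transcripts per 1000000 transcripts), a share of each library per transcript length, without counts, so library depth and counting error are not known. The library labelled Amuc_0904 replicate 1 lay apart from the other libraries of its group for most of the 42 genes, so results are given with and without it. It was singled out by these same values, so the p values without it can be too small. They show only how far results depend on this library. The label was checked against 8 epithelial markers, of which KRT8 had 2682 to 3291 TPM and EPCAM 546 to 621 TPM over the 6 libraries, while CDX2, an intestinal transcription factor, had 0.46 to 1.71 TPM. Of 9 markers of other cell types, CD3E and COL1A2 were listed at 0 in every library, PTPRC, DCN and VWF did not exceed 0.04 TPM, CD68 had 8.13 to 13.8 TPM, and the groups of the 3 that were tested overlapped. A gene was tested where 3 or more libraries reached 1 TPM, which left 14333 genes and every one of the 42 subunit genes. The test was limma on log2(TPM + 1), with Benjamini-Hochberg adjustment over the 14333, and a call is an adjusted p under 0.05.

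Promoter sequences of 5 subunit genes are shown, some chosen for the values of the gene and some for the motifs they hold. COX7B had the highest log2 fold change of the 42, ATP5PB the smallest p, and UQCRQ was the 1 gene whose Amuc_0904 libraries all lay below the controls. ATP5PF and SDHB, like ATP5ME, held all of the 3 motifs searched that are marked in capitals. Each sequence is from RefSeq on GRCh38.p14 and runs 5′ to 3′ on the strand of the gene, with 250 bases before the first listed start and 50 after it, at chrX:77899218-77899517 for COX7B, chr1:111449214-111449513 for ATP5PB, chr21:25735005-25735304 for ATP5PF, chr1:17053983-17054282 for SDHB and chr5:132866392-132866691 for UQCRQ. Capitals mark, on either strand, GCGCATG, which is an NRF1 half-site, CCGGAAG, an ETS site as GABP binds, and AAGATGG, the core of a YY1 site.
COX7B: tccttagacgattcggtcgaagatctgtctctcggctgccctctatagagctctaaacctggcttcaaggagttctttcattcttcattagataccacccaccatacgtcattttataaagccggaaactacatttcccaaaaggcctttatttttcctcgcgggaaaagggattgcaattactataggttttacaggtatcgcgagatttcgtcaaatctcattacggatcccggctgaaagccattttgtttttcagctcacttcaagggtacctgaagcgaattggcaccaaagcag
ATP5PB: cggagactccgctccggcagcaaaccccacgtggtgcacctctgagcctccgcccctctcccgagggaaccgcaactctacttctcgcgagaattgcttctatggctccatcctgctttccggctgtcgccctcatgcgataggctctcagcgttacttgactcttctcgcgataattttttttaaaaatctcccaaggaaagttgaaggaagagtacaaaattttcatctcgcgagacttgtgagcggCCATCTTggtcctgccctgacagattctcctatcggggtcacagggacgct
ATP5PF: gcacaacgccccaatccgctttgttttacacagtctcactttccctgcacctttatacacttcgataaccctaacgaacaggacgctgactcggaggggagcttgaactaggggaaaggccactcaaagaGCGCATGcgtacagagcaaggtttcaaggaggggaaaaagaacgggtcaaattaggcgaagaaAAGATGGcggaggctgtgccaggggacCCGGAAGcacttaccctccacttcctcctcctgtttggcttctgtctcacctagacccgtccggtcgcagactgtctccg
SDHB: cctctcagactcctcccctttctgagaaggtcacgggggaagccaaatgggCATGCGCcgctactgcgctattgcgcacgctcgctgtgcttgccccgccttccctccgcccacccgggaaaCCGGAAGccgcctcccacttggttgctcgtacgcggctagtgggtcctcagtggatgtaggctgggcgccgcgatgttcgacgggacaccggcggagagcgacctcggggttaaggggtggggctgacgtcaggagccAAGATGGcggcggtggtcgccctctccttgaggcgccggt
UQCRQ: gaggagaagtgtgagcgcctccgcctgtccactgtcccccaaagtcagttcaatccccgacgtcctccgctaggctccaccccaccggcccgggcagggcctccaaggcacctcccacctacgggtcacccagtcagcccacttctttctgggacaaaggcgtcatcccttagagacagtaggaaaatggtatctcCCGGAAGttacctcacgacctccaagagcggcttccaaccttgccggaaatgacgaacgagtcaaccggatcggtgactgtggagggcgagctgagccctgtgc

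NRF1, GABP and YY1 are transcription factors known for binding promoters of respiratory genes. Promoters were listed for 34 of the 42 genes, and those of COX6C, ATP5MF, UQCRB, CYC1, ATP5F1B, ATP5F1D, SDHC and ATP5MC3 were not analysed. The ETS letters were in a promoter of 16 of the 34 (47.1%), against 12.2% of the 27303 genes listed. The YY1 letters were in 9 (26.5%, against 7.11%) and the NRF1 half-site in 8 (23.5%, against 5.30%). The letters GGGCGGG on either strand, an SP site that is not marked, were in 11 of the 34 (32.4%), against 36.7% of all genes. The promoter of COX7B, the gene with the highest fold change, held none of the 3 marked motifs. The median log2 fold change was 0.09 for the 16 genes with the ETS letters and 0.11 for the 18 without, 0.10 with the NRF1 half-site and 0.11 without, and 0.15 with the YY1 letters and 0.10 without. A match to such letters describes the sequence and is not a measured binding site.

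Across the 42 genes, 36 had a higher mean and 6 a lower mean in the Amuc_0904 group, against 50.4% of all tested genes with a higher mean. With limma, 0 of the 42 passed the adjusted p in either direction, against 0.0698% of all tested genes called higher and 0.167% called lower. At an unadjusted p under 0.05, 12 of the 42 lay higher and 1, UQCRQ, lay lower (all tested genes, 9.95% and 5.87%). All 3 Amuc_0904 libraries lay above all 3 controls for 14 of the 42 genes and below them for 1, while the groups of the other 27 overlapped (all tested genes, 13.4% and 7.59%). The median log2 fold change was 0.10 over the 42 genes and 0.0015 over all tested genes. In bulk RNA, more cells of a type and more of a transcript per cell cannot be told apart. Abundant genes as a whole leaned the same way. Among the 2802 tested genes with a mean at or above that of the lowest of the 42, 63.1% had a higher mean, 21.8% lay higher at an unadjusted p under 0.05, 24.6% had Amuc_0904 libraries that all lay above the controls, and the median was 0.04. Under quantile normalization 28 genes had a higher mean, and at the same unadjusted threshold 7 lay higher and 2 lower (all tested genes, 7.64% and 7.69%). Leaving out a library moved the 12 genes higher at an unadjusted p to 30 without Amuc_0904 replicate 1 (15.7% of all tested genes), 7 without Amuc_0904 replicate 2 (5.71%), 5 without Amuc_0904 replicate 3 (5.44%), and 6 without control replicate 2 (6.08%) or control replicate 3 (6.14%).

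**Figure D1:**
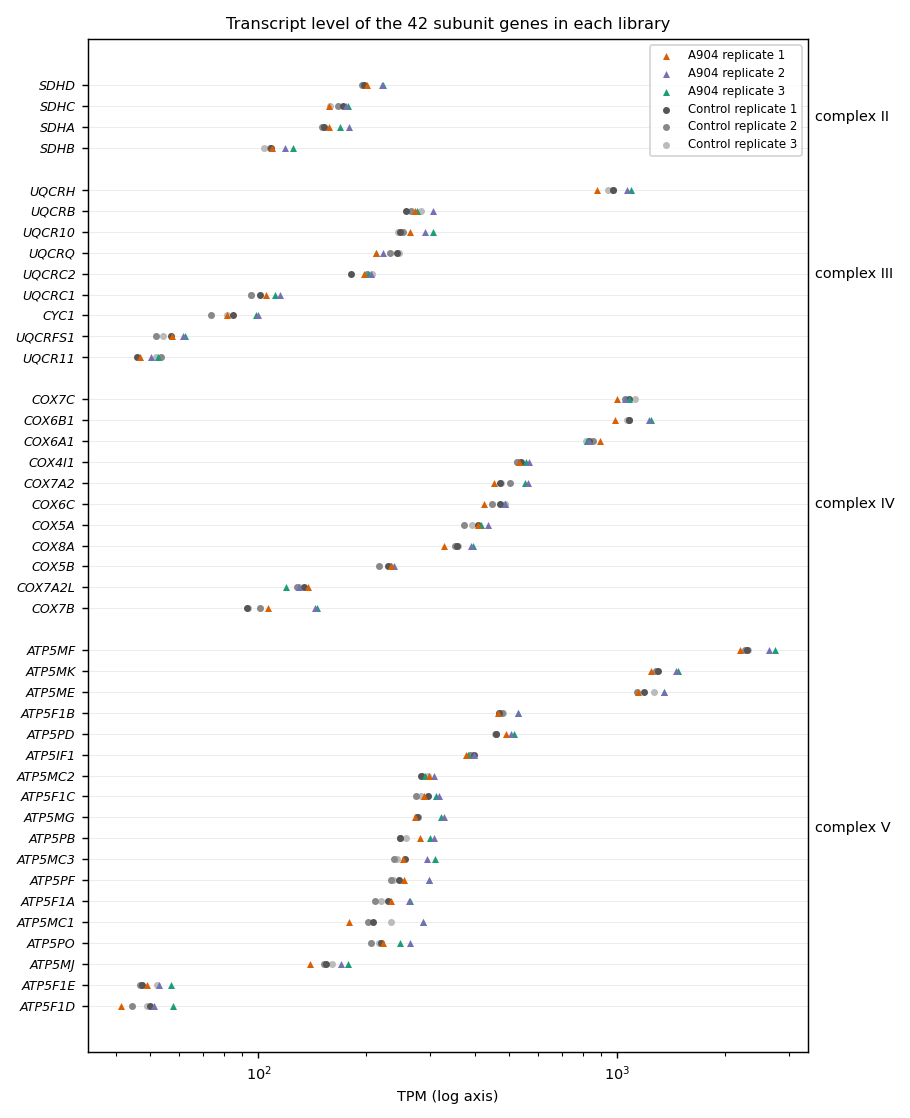
TPM of each of the 42 subunit genes in each library, on a log axis, grouped by complex and ordered by level (triangles, Amuc_0904, labelled A904; circles, control). ATP5MF has the highest level (means 2529.6 TPM in the Amuc_0904 group and 2292 TPM in the controls), and for many genes Amuc_0904 replicate 1 lies left of replicates 2 and 3.

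The 3 Amuc_0904 libraries did not contribute alike. In Amuc_0904 replicates 2 and 3, 35 and 32 of the 42 genes lay above the highest control (31.3% and 30.6% of all tested genes) and 1 and 3 lay below the lowest (37.9% and 39.1%). In Amuc_0904 replicate 1, 17 lay above the highest control and 16 below the lowest (42.1% and 16% of all tested genes). Among the 2802 abundant genes, 47.2%, 52.4% and 50.9% lay above the highest control in Amuc_0904 replicates 1, 2 and 3. Measured against the control mean on the log2(TPM + 1) scale, the median deviation of the 42 genes was 0.01, 0.16 and 0.18 in Amuc_0904 replicates 1, 2 and 3, and between −0.016 and 0.007 in the controls. Without Amuc_0904 replicate 1, 25 genes passed the adjusted p as higher and UQCRQ as lower (all tested genes, 9.34% and 8.85%), 16 passed in neither direction, and the median log2 fold change was 0.17. In the same fit 28.0% of the 2802 abundant genes were called higher and 14.8% lower, and the median over all tested genes was −0.028. The summed level of the 42 genes was 16672, 19006 and 19082 TPM in the Amuc_0904 libraries, against 17131, 16888 and 17229.9 TPM in the controls. In the same libraries the transcripts of the mitochondrial genome, which share the fixed total of TPM, took 13.0%, 10.6% and 11.1% of TPM in the Amuc_0904 libraries, against 12.8%, 13.5% and 12.8% in the controls. As a share of nuclear TPM alone, the 42 genes took 1.92%, 2.13% and 2.15% in the Amuc_0904 libraries, against 1.97%, 1.95% and 1.98% in the controls, so replicates 2 and 3 still lay above every control and replicate 1 below.

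**Figure D2:**
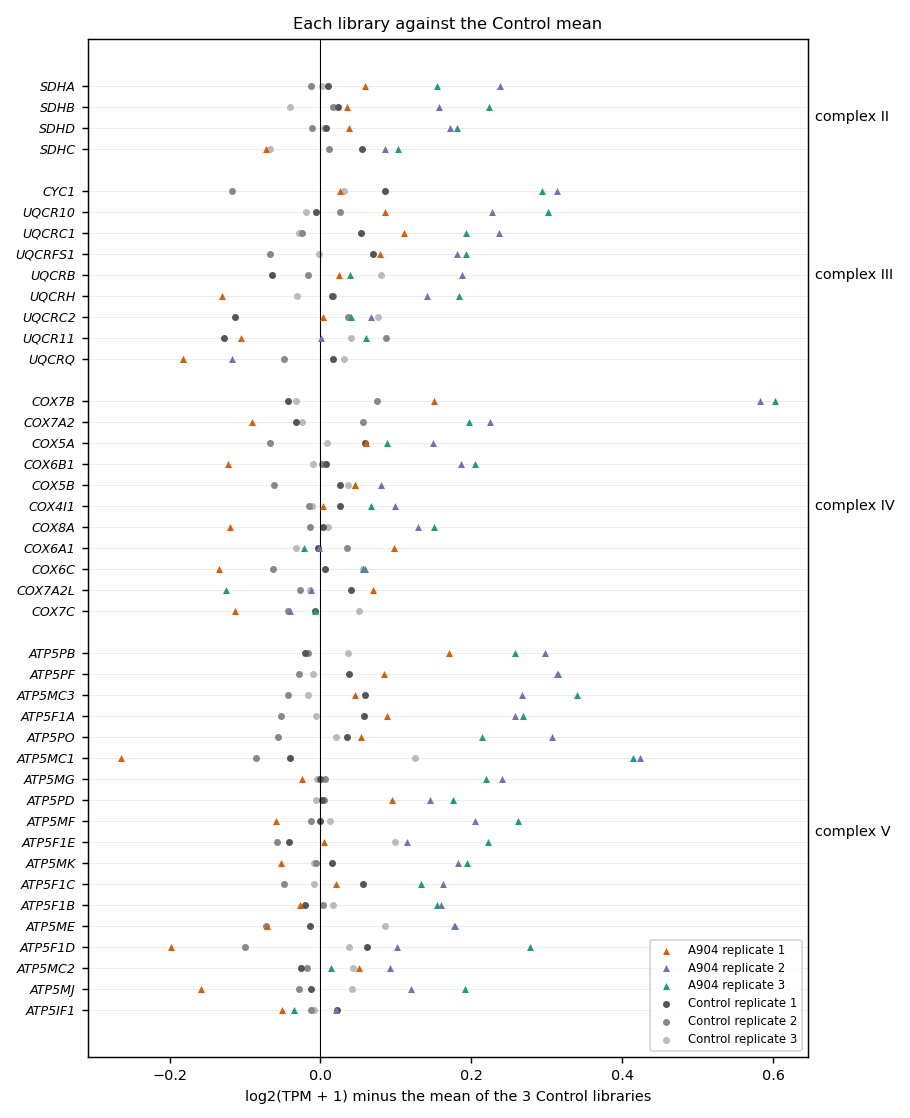
Level of each subunit gene in each library as log2(TPM + 1) minus the mean of the 3 control libraries, grouped by complex and ordered by fold change (triangles, Amuc_0904, labelled A904; circles, control). COX7B reaches the highest values, UQCRQ is the only gene with all 3 triangles left of all 3 circles, and Amuc_0904 replicate 1 is left of the controls for 16 genes.

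Complex II had the largest share of subunits whose groups did not overlap, 3 of 4 (13.4% of all tested genes and 24.6% of the abundant ones), with a median log2 fold change of 0.13 (0.18 without Amuc_0904 replicate 1). SDHA, the flavoprotein that oxidises succinate (chr5:218241-256700 on GRCh38), had 158, 179 and 168 TPM in the Amuc_0904 libraries, against 152, 150.1 and 152 TPM in the controls. Every Amuc_0904 library lay above every control, Amuc_0904 replicate 1 by the least (log2 fold change 0.15, standard error 0.06, limma adjusted p = 0.281, and 0.0148 without replicate 1). SDHB, the iron-sulfur subunit that receives the electrons (chr1:17018722-17054170), had 109, 119 and 124 TPM in the Amuc_0904 libraries, against 108, 108 and 103 TPM in the controls. Here too the groups did not overlap, with replicate 1 less than 1 TPM above the highest control (log2 fold change 0.14, standard error 0.06, adjusted p = 0.322, and 0.0218 without replicate 1). SDHD, a membrane anchor that helps to bind ubiquinone and heme (chr11:112086773-112120013), had 201, 220.3 and 222 TPM in the Amuc_0904 libraries, against 196, 194 and 196 TPM in the controls. The controls lay within 3 TPM of each other and below all Amuc_0904 libraries (log2 fold change 0.13, standard error 0.05, adjusted p = 0.302, and 0.00794 without replicate 1). SDHC, the partner anchor (chr1:161314257-161375340), had 157, 175 and 177 TPM in the Amuc_0904 libraries, against 172, 166 and 158 TPM in the controls. Its groups overlapped, since Amuc_0904 replicate 1 was the lowest of the 6 libraries (log2 fold change 0.04, and −0.013 under quantile normalization, 95% interval −0.11 to 0.19, adjusted p = 0.802). SDHA has near-identical copies that could share its reads, and of these SDHAP4 had 39.1, 35.1 and 33.5 TPM in the Amuc_0904 libraries, against 38.3, 39.9 and 36.0 TPM in the controls, with overlapping groups. Of 4 assembly factors of complex II, SDHAF3, which protects the iron-sulfur subunit, had 39.0, 45.7 and 47.2 TPM in the Amuc_0904 libraries, against 37.7, 35.8 and 33.4 TPM in the controls, and SDHAF1, which helps to insert its clusters, had 22.0, 21.6 and 21.4 TPM, against 19.7, 17.9 and 19.1 TPM in the controls. Both lay above every control in every Amuc_0904 library, and neither passed the adjusted p (0.238 and 0.25), nor did the other factors.

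Complex III held genes at both ends. Of its 9 nuclear subunits 3 lay above every control in every Amuc_0904 library and 1 below. The shares were 13.4% and 7.59% of all tested genes, and 24.6% and 7.82% of the abundant ones. The median log2 fold change of complex III was 0.08 (0.16 without Amuc_0904 replicate 1, and 0.0094 under quantile normalization). UQCRQ, a small subunit that lies next to cytochrome b (chr5:132866560-132868031), had 212, 222 and 212 TPM in the Amuc_0904 libraries, against 244, 233 and 246 TPM in the controls. All 3 Amuc_0904 libraries, replicate 1 included, lay below the lowest control, with a mean 10.6% lower (log2 fold change −0.16, standard error 0.05, limma adjusted p = 0.238). It passed as lower without replicate 1 (adjusted p = 0.0402). UQCR10, another small subunit of the same complex (chr22:29767369-29770413), had 264, 291 and 307 TPM in the Amuc_0904 libraries, against 247, 253 and 245 TPM in the controls. It lay the other way, above every control in every Amuc_0904 library (log2 fold change 0.21, standard error 0.06, adjusted p = 0.245, and 0.00472 without replicate 1). UQCRC1, a core protein of the matrix side (chr3:48599002-48610976), had 105, 115 and 111 TPM in the Amuc_0904 libraries, against 101, 95.6 and 95.3 TPM in the controls. Its groups did not overlap either (log2 fold change 0.18, standard error 0.05, adjusted p = 0.238, and 0.0165 without replicate 1). CYC1, the cytochrome that hands electrons on to cytochrome c, had 81.5, 99.7 and 98.4 TPM in the Amuc_0904 libraries, against 85.0, 73.7 and 81.8 TPM in the controls. Amuc_0904 replicate 1 lay inside the control range and replicates 2 and 3 above it (log2 fold change 0.21, the highest of the complex, standard error 0.09, adjusted p = 0.327, and 0.0238 without replicate 1). UQCRFS1, the Rieske iron-sulfur protein (chr19:29205321-29213541), had 57.5, 61.7 and 62.2 TPM in the Amuc_0904 libraries, against 57.1, 51.8 and 54.2 TPM in the controls. Less than 1 TPM lay between its groups (log2 fold change 0.15, standard error 0.06, adjusted p = 0.292, and 0.0513 without replicate 1). UQCRB, UQCRH, UQCRC2 and UQCR11 overlapped between groups, with log2 fold changes of 0.08, 0.06, 0.04 and −0.01, and of these UQCRH, the hinge subunit near the cytochrome c site, passed without replicate 1 (adjusted p = 0.0113). The direction of 3 of these 4 turned in other fits, to −0.056 for UQCRH under quantile normalization, to −0.020 for UQCRC2 without control replicate 1, and to 0.03 for UQCR11 without Amuc_0904 replicate 1. BCS1L, the chaperone that inserts the Rieske protein and 1 of 6 assembly factors of the complex, had 37.0, 40.5 and 38.5 TPM in the Amuc_0904 libraries, against 30.9, 29.6 and 31.6 TPM in the controls. LYRM7, which holds the Rieske protein before insertion, had 8.59, 12.8 and 13.2 TPM in the Amuc_0904 libraries, against 7.46, 8.27 and 4.52 TPM in the controls. Both separated the groups without passing the adjusted p (log2 fold changes 0.32 and 0.71, adjusted p = 0.136 and 0.254). CYCS, the cytochrome c that complex III reduces, had 219, 296 and 299 TPM in the Amuc_0904 libraries, against 212, 202 and 211 TPM in the controls. Replicate 1 lay closest to the controls, though above them (log2 fold change 0.37, standard error 0.12, adjusted p = 0.25, and 0.000713 without replicate 1).

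Complex IV had the lowest median log2 fold change of the 4 complexes, 0.06 (0.08 without Amuc_0904 replicate 1, and −0.0086 under quantile normalization). Without that library 4 of its 11 members passed as higher (9.34% of all tested genes and 28.0% of the abundant ones), and 7 passed in neither direction. COX7B stood apart from the rest. This small membrane subunit, needed to assemble the complex (chrX:77899438-77907373), had 107, 144 and 146 TPM in the Amuc_0904 libraries, against 93.0, 101 and 93.7 TPM in the controls. Every Amuc_0904 library lay above every control, replicates 2 and 3 by far more than replicate 1, and the mean was 37.8% higher (log2 fold change 0.45, standard error 0.12, limma adjusted p = 0.234, and 0.00145 without replicate 1). COX5A, a matrix-side subunit (chr15:74919791-74938168), had 409, 435 and 417 TPM in the Amuc_0904 libraries, against 408, 374 and 394 TPM in the controls. COX5B, a zinc-binding subunit of the same side (chr2:97646040-97648383), had 234, 239 and 234 TPM in the Amuc_0904 libraries, against 230.3, 217 and 232 TPM in the controls. Both pairs of groups stayed apart by less than 2 TPM, and neither gene passed in any of the 15 alternative fits (log2 fold changes 0.10 and 0.06, the second −0.0086 under quantile normalization, adjusted p = 0.393 and 0.579). At the other end, COX7C, a small membrane subunit (chr5:86617904-86620962), had 999, 1050.3 and 1075 TPM in the Amuc_0904 libraries, against 1075, 1048 and 1119 TPM in the controls. Amuc_0904 replicate 1 was the lowest library and the others lay within the control range (log2 fold change −0.05, 95% interval −0.17 to 0.06). COX7A2L, which is no subunit of every complex IV but joins it to complex III in supercomplexes (chr2:42333546-42425088), had 137, 129 and 119.6 TPM in the Amuc_0904 libraries, against 134, 128 and 129 TPM in the controls. Here Amuc_0904 replicate 1 was the highest library and replicate 3 the lowest (log2 fold change −0.02, and 0.03 without Amuc_0904 replicate 3, 95% interval −0.16 to 0.12, adjusted p = 0.882). COX7A2, COX6B1 and COX8A, chosen after their values were seen, had overlapping groups and log2 fold changes of 0.11, 0.09 and 0.05, and passed without replicate 1 (adjusted p = 0.011, 0.00294 and 0.0129). COX4I1, COX6A1 and COX6C had log2 fold changes of 0.06, 0.02 and −0.01 and did not pass in either fit. All 3 turned in another fit, COX4I1 to −0.012 under quantile normalization, COX6A1 to −0.012 without Amuc_0904 replicate 1 and to −0.041 under quantile normalization, and COX6C to 0.06 without Amuc_0904 replicate 1. Isoforms known from other tissues were at or near 0, with COX4I2, COX6A2, COX7B2 and COX8C listed at 0 in every library, COX7A1 at 0 in all but Amuc_0904 replicate 2 (0.26 TPM) and COX6B2 between 0.29 and 1.15 TPM. NDUFA4, a subunit now counted with complex IV despite its name, had 73.8, 102 and 98.4 TPM in the Amuc_0904 libraries, against 74.5, 70.8 and 74.0 TPM in the controls. NDUFA4L2, its paralog, had 24.7, 23.6 and 19.8 TPM in the Amuc_0904 libraries, against 29.7, 32.6 and 24.9 TPM in the controls. The first overlapped the controls through replicate 1, while the second lay below every control (log2 fold changes 0.30 and −0.34, adjusted p = 0.289 and 0.265). Of 28 assembly factors of complex IV, 25 had a higher mean, 6 lay higher at an unadjusted p under 0.05 (9.95% of all tested genes and 21.8% of the abundant ones), 0 passed the adjusted p with limma, and the median log2 fold change was 0.14. SCO1, a copper chaperone among them, had 19.3, 20.0 and 20.7 TPM in the Amuc_0904 libraries, against 15.9, 17.1 and 16.6 TPM in the controls, and COX18, which inserts a mitochondrially encoded subunit into the membrane, had 7.06, 7.87 and 7.03 TPM, against 5.39, 5.54 and 6.32 TPM in the controls. Both lay above every control in every Amuc_0904 library (adjusted p = 0.225 and 0.248). Of the 28, 6 lay above every control and 1 below (13.4% and 7.59% of all tested genes, 24.6% and 7.82% of the abundant ones). The 1 below was SURF1, named after its values were seen (log2 fold change −0.15, limma adjusted p = 0.332).

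Complex V had 17 of 18 members with a higher mean, a median log2 fold change of 0.12 (0.19 without Amuc_0904 replicate 1), and 14 members past the adjusted p as higher without that library (9.34% of all tested genes and 28.0% of the abundant ones). The peripheral stalk, which holds the head of the enzyme still while the rotor turns, had 4 of 4 members whose Amuc_0904 libraries all lay above the controls (13.4% of all tested genes and 24.6% of the abundant ones), with a median of 0.21. ATP5PB, subunit b of this stalk (chr1:111448864-111462773), had 282, 308 and 300.0 TPM in the Amuc_0904 libraries, against 247, 248 and 257 TPM in the controls. Replicate 1 was again the nearest to the controls, and the gap between the groups was wider than the spread of the controls (log2 fold change 0.24, standard error 0.05, limma adjusted p = 0.189, the smallest of the 42, and 0.00346 without replicate 1). ATP5PF, the coupling factor F6 (chr21:25716503-25735673), had 254, 298 and 298 TPM in the Amuc_0904 libraries, against 246, 235 and 238 TPM in the controls. Replicates 2 and 3 were alike and replicate 1 lay between them and the controls (log2 fold change 0.24, standard error 0.07, adjusted p = 0.24, and 0.00235 without replicate 1). ATP5PD, subunit d (chr17:75038863-75046985), had 488, 506 and 516 TPM in the Amuc_0904 libraries, against 458, 458 and 455 TPM in the controls. Its controls spanned less than 4 TPM, far less than the gap between the groups (log2 fold change 0.14, standard error 0.04, adjusted p = 0.247, and 0.00777 without replicate 1). ATP5PO, the oligomycin sensitivity-conferring protein at the top of the stalk, described after its values were seen, had 222, 265 and 248 TPM in the Amuc_0904 libraries, against 219, 206 and 217 TPM in the controls. Replicate 1 lay less than 3 TPM above the highest control (log2 fold change 0.19, adjusted p = 0.28, and 0.0113 without replicate 1).

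The head of the enzyme makes ATP in subunits alpha and beta, around a central stalk of gamma, delta and epsilon. ATP5F1A, subunit alpha (chr18:46080248-46104334), had 234, 263 and 265 TPM in the Amuc_0904 libraries, against 229, 212 and 219 TPM in the controls. It was the only one of these 5 genes whose groups did not overlap (log2 fold change 0.20, standard error 0.06, limma adjusted p = 0.248, and 0.00793 without replicate 1). ATP5F1B, ATP5F1C, ATP5F1D and ATP5F1E, for beta, gamma, delta and epsilon, had log2 fold changes of 0.10, 0.10, 0.06 and 0.11. Beta and gamma passed without replicate 1 (adjusted p = 0.00864 and 0.0411), and delta and epsilon did not (0.131 and 0.125). The log2 fold change of delta turned to −0.048 without Amuc_0904 replicate 3. The genes for delta and epsilon had the lowest levels per length of complex V, with control means of 47.6 and 48.8 TPM, against 474 TPM for beta.

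The rotor ring in the membrane is built of subunit c, which 3 genes encode as the same mature protein behind different import signals. ATP5MC1 (chr17:48892765-48895871) had 179, 288 and 287 TPM in the Amuc_0904 libraries, against 209, 202 and 234 TPM in the controls. Amuc_0904 replicates 2 and 3 were the highest and replicate 1 the lowest of the 6 libraries, the widest spread within a group among the 42 genes on the log2 scale (log2 fold change 0.19, standard error 0.18, limma adjusted p = 0.635, and 0.00885 without replicate 1). ATP5MC3 (chr2:175176258-175184607) had 253, 296 and 311 TPM in the Amuc_0904 libraries, against 256, 238 and 243 TPM in the controls. Replicate 1 lay within the control range and the other Amuc_0904 libraries above it (log2 fold change 0.22, standard error 0.08, adjusted p = 0.277, and 0.00643 without replicate 1). ATP5MC2 (chr12:53632726-53677408) had 299, 308 and 291 TPM in the Amuc_0904 libraries, against 284, 285 and 298 TPM in the controls. Its groups overlapped and it did not pass with or without replicate 1 (log2 fold change 0.05, and −0.015 under quantile normalization, 95% interval −0.06 to 0.16, adjusted p = 0.607, and 0.366 without replicate 1). In the controls the 3 genes had means of 215 TPM for ATP5MC1, 289 TPM for ATP5MC2 and 246 TPM for ATP5MC3, and whether their fold changes differ from each other was not tested. A pseudogene copy, ATP5MC1P4, was listed at 0.92, 2.66 and 3.98 TPM in the Amuc_0904 libraries, against 1.80, 3.17 and 3.03 TPM in the controls.

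The small membrane subunits of complex V, which shape the membrane where the enzyme forms dimers, had some of the highest levels of all. ATP5MF, ATP5MK and ATP5ME, chosen after their values were seen, had Amuc_0904 means of 2529.6, 1392 and 1281 TPM, against 2292, 1288 and 1197 TPM in the controls. For these and for ATP5MG and ATP5MJ the groups overlapped through replicate 1, and the log2 fold changes ran from 0.05 to 0.15. All 5 passed as higher without replicate 1, with adjusted p from 0.00283 to 0.0447 (9.34% of all tested genes and 28.0% of the abundant ones). In other fits ATP5MJ turned to −0.019 without Amuc_0904 replicate 3 and to −0.0098 under quantile normalization, and ATP5MK turned to −0.0081 under quantile normalization. ATP5IF1, which blocks ATP hydrolysis by the enzyme (chr1:28236109-28246906), had 379, 398 and 383 TPM in the Amuc_0904 libraries, against 399, 389.5 and 390.3 TPM in the controls. Its groups overlapped, with a log2 fold change of −0.02 (95% interval −0.12 to 0.08, adjusted p = 0.834). Of 5 assembly factors of complex V, ATPAF1, the chaperone of subunit beta, had 59.6, 59.3 and 57.8 TPM in the Amuc_0904 libraries, against 54.3, 53.4 and 55.6 TPM in the controls, and TMEM70, which helps to build the ring, had 27.6, 31.3 and 27.4 TPM, against 28.1, 25.8 and 24.6 TPM in the controls. Of these, ATPAF1 separated the groups (adjusted p = 0.308 and 0.438). SLC25A5, the carrier that exchanges the ATP made for cytosolic ADP, had 437, 557 and 558 TPM in the Amuc_0904 libraries, against 422, 424 and 434 TPM in the controls. It too lay above every control (log2 fold change 0.27, adjusted p = 0.273, and 0.000817 without replicate 1).

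**Figure D3:**
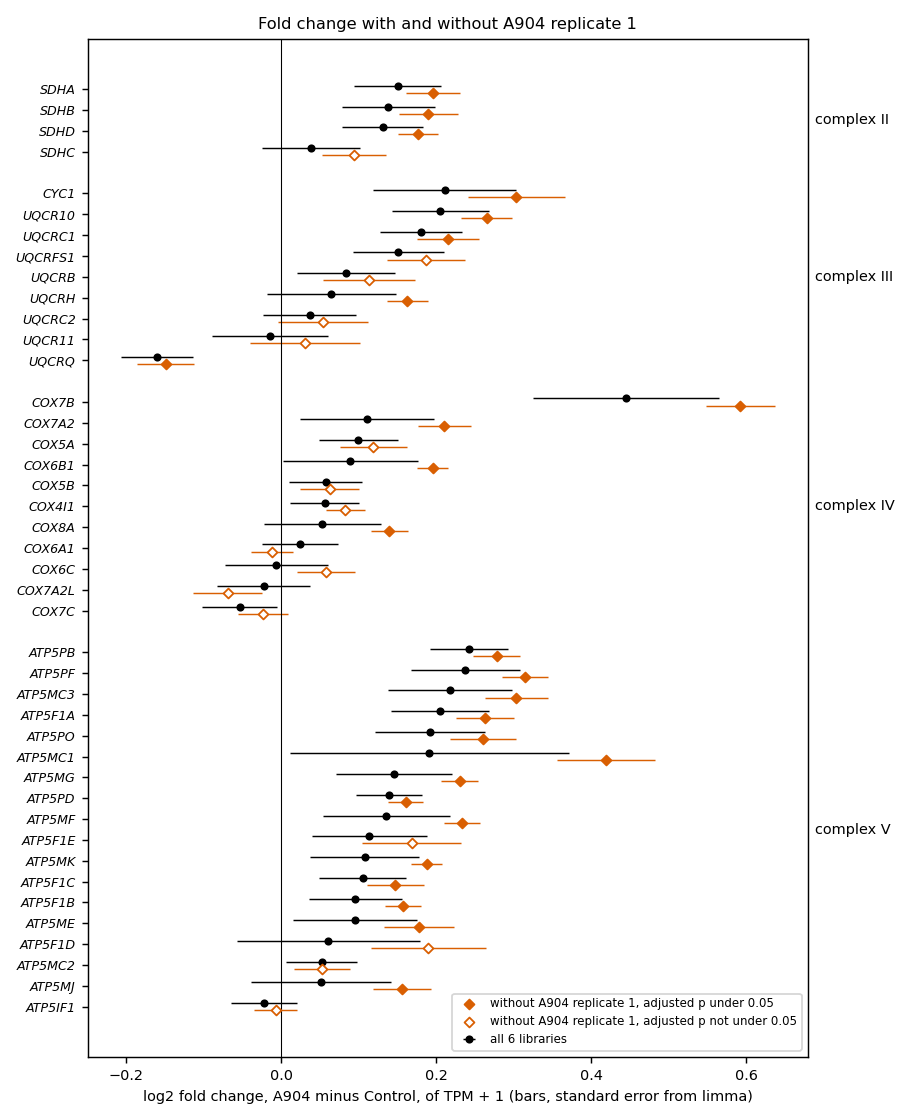
Log2 fold change of each subunit gene, Amuc_0904 (A904) minus control, with its standard error from limma, over all 6 libraries (black circles) and without Amuc_0904 replicate 1 (orange diamonds, filled where the adjusted p is under 0.05). Filled diamonds stand for 26 genes, 25 to the right of 0 and UQCRQ to the left, while 0 genes passed over all 6 libraries.

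Library by library the complexes followed each other. The median deviation from the control mean in Amuc_0904 replicates 1, 2 and 3 was 0.04, 0.16 and 0.17 for complex II, 0.03, 0.18 and 0.18 for complex III, 0.003, 0.10 and 0.07 for complex IV, and −0.01, 0.18 and 0.22 for complex V. For 37 nuclear subunits of complex I, listed for comparison, it was 0.002, 0.14 and 0.15, and for all tested genes 0.05, −0.02 and −0.03. Of these complex I genes 32 had a higher mean, 11 lay higher at an unadjusted p under 0.05, 16 passed as higher without replicate 1, and the median log2 fold change was 0.10, next to 0.10 for the 42 genes of complexes II to V. The shares over all tested genes were 50.4%, 9.95% and 9.34%, and those over the abundant genes 63.1%, 21.8% and 28.0%. NDUFA6, an accessory subunit of complex I, had 66.4, 66.0 and 72.7 TPM in the Amuc_0904 libraries, against 55.8, 58.1 and 60.6 TPM in the controls, with no overlap and an adjusted p of 0.232. Over the 42 genes, across genes that are not independent replicates, the log2 fold change had a Pearson r of 0.23 with the median transcript length and of −0.17 with the log2 mean level. Their transcripts were short, with a median length of 672 nt, against 1765 nt for 11686 tested genes with a protein-coding transcript.

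Nuclear subunits are assembled with partners encoded by mitochondrial DNA, so their transcripts were set against each other within a library. Summed over complex III, the nuclear transcripts were 0.447, 0.753 and 0.714 times the level of MT-CYB in the Amuc_0904 libraries, against 0.467, 0.439 and 0.462 times in the controls. For complex IV over MT-CO1, MT-CO2 and MT-CO3 together, the ratio was 0.167, 0.227 and 0.213 in the Amuc_0904 libraries, against 0.182, 0.166 and 0.182 in the controls. For complex V over MT-ATP6, it was 1.28, 1.85 and 1.82 in the Amuc_0904 libraries, against 1.32, 1.24 and 1.34 in the controls. In all 3 complexes Amuc_0904 replicates 2 and 3 lay above every control and replicate 1 lay within the control range. With MT-ATP8, whose reading frame overlaps that of MT-ATP6, added to the divisor, the ratio for complex V was 0.19, 0.261 and 0.259 in the Amuc_0904 libraries, against 0.181, 0.177 and 0.181 in the controls, and replicate 1 then lay above the controls too. The level of MT-CYB alone was 4738, 3208 and 3383 TPM in the Amuc_0904 libraries, against 4695, 5019 and 4775 TPM in the controls. The 6 mitochondrially encoded subunits of complexes III to V all had lower means, with log2 fold changes from −0.38 to −0.08 and a median of −0.19. With limma 0 of the 6 passed the adjusted p and 3 lay lower at an unadjusted p under 0.05 (5.87% of all tested genes), while 4 passed as lower without replicate 1 (8.85% of all tested genes and 14.8% of the abundant ones). A ratio within a library does not depend on the total to which the library is scaled.

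Among 13 regulators of mitochondrial biogenesis, 12 were tested and 0 passed the adjusted p with limma, with 1 higher at an unadjusted p under 0.05 (9.95% of all tested genes). That gene was TFAM, which packages and transcribes mitochondrial DNA, with 49.1, 55.0 and 53.6 TPM in the Amuc_0904 libraries, against 44.7, 46.5 and 45.0 TPM in the controls. Its groups did not overlap (log2 fold change 0.21, standard error 0.06, adjusted p = 0.238, and 0.0113 without replicate 1). TFB2M, a factor for mitochondrial transcription, had 42.2, 44.4 and 43.2 TPM in the Amuc_0904 libraries, against 41.9, 38.5 and 40.0 TPM in the controls (adjusted p = 0.386). The factors whose motifs were searched in the promoters, NRF1, GABPA and YY1, had log2 fold changes of −0.07, 0.04 and 0.09, and PPARGC1A, a coactivator of these genes, was at 0.13 to 0.31 TPM and was not tested.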

How the data were processed

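RNA-seq of 6 libraries of HT-29 cells, 3 per group, was available as TPM per gene. The authors trimmed the reads with SeqPrep and Sickle, aligned them with HISAT2 and assembled transcripts with StringTie, and the submitters' processing notes also name RSEM and edgeR, all without versions. The deposited TPM values sum to 1000000 per library within rounding. The notes name the mouse build GRCm38.p6, while the identifiers are human Ensembl genes, so the human build is not given in the sources used here. The table lists 63241 genes, and 25 lines with only spilled annotation text were left out. No counts were used, so no counting error can be given.

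The 14333 genes that reached 1 TPM in 3 or more libraries were fitted on the log2(TPM + 1) scale. The fit was that of limma (version 3.58.1, run in R 4.3.3), with a trend of variance on level, robust moderation and the group as its only term, and Benjamini-Hochberg adjustment ran over all of them. A log2 fold change is Amuc_0904 minus control on this scale, which understates changes of low genes. Intervals are 95% intervals of that fit. No permutation test is given for single genes, since 0.1 is the smallest two-sided p an exact test can reach with 3 libraries per group. The fit was tested on data simulated from the control libraries. That simulation held no library apart from its group, and its shifts were larger than any fold change of the subunit genes over all 6 libraries.

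The subunit genes and the comparison lists, 12 in number and written from general knowledge, were chosen with earlier results of these data known. Values per library are given for every complex II subunit, for up to 5 genes per complex by p among those whose groups did not overlap or whose unadjusted p was under 0.05, for the highest and lowest fold change of each complex, for the c-ring genes, COX7A2L and ATP5IF1, and for up to 2 genes per comparison list, of which 1 is not reported here. The other subunit genes are given mostly by fold change, so that every gene is accounted for, and those described as chosen after their values were seen lie outside this rule. Positions are those of GENCODE on GRCh38, matched by gene identifier, and the annotation behind the TPM values may place genes otherwise. Of 135 pseudogene copies of the subunit genes listed, 7 reached 1 TPM in any library. Promoters are from RefSeq, and motif letters were searched on both strands. The 15 alternatives used other pseudocounts and filters, weighted libraries, a replicate block, quantile, median-of-ratios and nuclear-only scaling, and each library left out in turn.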

Additional observations from a re-analysis of the deposited data

How the results depend on the processing

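Of the 42 subunit genes, 0 passed the adjusted p over all 6 libraries. With library weights, which gave Amuc_0904 replicate 1 a weight of 0.22, 21 passed as higher and 1 as lower (all tested genes, 9.17% and 7.37%). Leaving out single libraries gave 0 to 25 higher and 0 to 1 lower. The counts of 25 and 1 came only without Amuc_0904 replicate 1 (all tested genes, 9.34% and 8.85%). At an unadjusted p under 0.05, 12 lay higher and 1 lower (all tested genes, 9.95% and 5.87%). Library weights gave 29 higher (16.4% of all tested genes) and median-of-ratios scaling 6 higher (7.06%). Quantile normalization gave 7 higher and 2 lower (7.64% and 7.69%). Fits with a library left out gave 5 to 30 higher (5.44% to 15.7%). They gave 0 to 1 lower (3.07% to 18.1%), with 0 without control replicate 3. The median log2 fold change was 0.067 to 0.17 with a library left out, 0.04 with quantile normalization and 0.08 after rescaling without mitochondrial genes. For complex III it was 0.0094 with quantile normalization and 0.032 to 0.16 with a library left out, and for complex IV −0.0086 with quantile normalization, a turn in direction. Among single genes, quantile normalization turned the log2 fold changes of ATP5MC2 (−0.015), ATP5MJ (−0.0098), ATP5MK (−0.0081), COX4I1 (−0.012), COX5B (−0.0086), COX6A1 (−0.041), SDHC (−0.013) and UQCRH (−0.056). Library weights turned COX6A1 (−0.0043), COX6C (0.045) and UQCR11 (0.018), and rescaling without mitochondrial genes turned COX6A1 (−0.000698). With a library left out, values turned without Amuc_0904 replicate 3 for ATP5F1D (−0.048 to 0.19), ATP5MJ (−0.019 to 0.16) and COX7A2L (−0.069 to 0.028), without Amuc_0904 replicate 1 for COX6A1 (−0.012 to 0.048), COX6C (−0.039 to 0.058, also without control replicate 3) and UQCR11 (−0.078 to 0.031, also without control replicate 2 or 3), without control replicate 1 for UQCRC2 (−0.020 to 0.075), without control replicate 2 for CD68 (−0.28 to 0.051), and without Amuc_0904 replicate 2 or control replicate 3 for PECAM1 (−0.052 to 0.26). Of the 65 genes given or chosen for single values, 38 passed with library weights and 41 without Amuc_0904 replicate 1, against 0 over all 6 libraries. Over all tested genes 9.17% passed as higher and 7.37% as lower with library weights, and 9.34% and 8.85% without Amuc_0904 replicate 1. Some of the 65 were picked by their small p in these data, so their counts cannot be read against these shares. No other alternative changed a call among the 65. The cause was not tested.

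Deviations of same-numbered libraries from their group means had correlations of 0.05, −0.04 and −0.0047. With 3 libraries per group, and Amuc_0904 replicate 1 apart from its group, these values cannot tell whether same-numbered libraries were paired. With a replicate block 0 of the 42 genes passed the adjusted p and 8 lay higher at an unadjusted p under 0.05 (8.23% of all tested genes). With 3 libraries per group, fold changes of the size seen here lie near the spread between libraries, and with no counts the part of that spread due to depth is unknown.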
